A study of Mus musculus with 9 samples.

Results

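The clustered histone genes encode the 4 core histones (H2A, H2B, H3 and H4) and the linker histone H1, and sit in 4 groups of neighbouring genes named Hist1 to Hist4. Members were taken as every gene in the deposited tables whose GENCODE M21 symbol begins with Hist1h, Hist2h, Hist3h or Hist4h. This gave 67 of the 21853 genes: 6 for H1, 18 for H2A, 18 for H2B, 12 for H3 and 13 for H4. The rule used only gene names in the annotation and no measured value, but it was chosen with earlier results of these data known.

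The data are 9 poly(A)-selected libraries of mouse brain, in 3 groups of 3. The WT-Control libraries came from wild-type mice given pAAV-GFAP(pro)-Control-mCherry, and the HD-Control libraries from N171-82Q mice given the same virus. HD-WNT5B libraries came from N171-82Q mice given pAAV-GFAP(pro)-WNT5B-P2A-mCherry. All mice therefore carried a virus that drives mCherry from the GFAP promoter, which is active in astrocytes, and the series design names the striatum as the site of injection. N171-82Q mice express an N-terminal fragment of mutant huntingtin in neurons. The labels give the tissue as brain, with no region, and give no age, sex, batch or animal behind a library, so p-values measure only the spread between libraries, which may be technical.

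Most of these genes are transcribed during S phase, when new DNA must be packed into nucleosomes. Their messenger RNA usually ends without a poly(A) tail, just after a short stem-loop that stem-loop binding protein (Slbp) holds and that the U7 small nuclear RNA machinery cuts behind. Some members also give a longer, polyadenylated transcript from a signal further downstream, which is the form known from cells that no longer divide. A library selected on poly(A) therefore reads the polyadenylated forms of these genes and largely passes over the stem-loop forms. Values here are levels in normalized read counts, and a member's level is not a measure of histone protein.

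The stem-loop itself was searched in the longest annotated coding transcript of each member, since the form that selection misses ends just behind it. A longer transcript can hold it too: that of Hist1h1c runs 840 bases past it. Having the element therefore does not tell the forms apart. A perfect 6-base stem that begins with GG, around a 4-base loop, was present in 45 of 67 members, starting 21 to 58 bases after the stop codon (median 31). The 16-base element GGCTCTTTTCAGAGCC was shared by 25 members of H1, H2A, H2B and H3, and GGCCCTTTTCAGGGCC by 7 H4 members only. The elements of members described below are shown with 5 bases on either side, stem and loop in capitals, read from the GENCODE M21 transcripts:
Hist1h1c: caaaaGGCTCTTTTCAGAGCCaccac
Hist3h2a: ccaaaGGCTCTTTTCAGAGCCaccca
Hist3h2ba: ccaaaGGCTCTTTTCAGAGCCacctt
Hist2h3c1: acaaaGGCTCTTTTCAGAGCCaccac
Hist1h4h: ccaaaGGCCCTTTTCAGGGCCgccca
Hist1h4i: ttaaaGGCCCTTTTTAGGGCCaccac
Hist2h4: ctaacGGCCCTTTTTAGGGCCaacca
The stem of the H4 elements differs from the common one, and Hist1h4i and Hist2h4 share a loop that Hist1h4h does not have. Of the 22 members without a match, 15 have an annotated transcript that ends within 2 bases of the stop codon, so the element could not lie inside it. Hist1h2bc and Hist2h2be, which are among the most abundant members below, also gave no match.

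Most of the summed histone level came from members with a long annotated 3′ end. The 25 members with at least 200 annotated bases after the stop codon carried 98.52% of the summed histone level in WT-Control, 99.08% in HD-Control and 95.98% in HD-WNT5B libraries. They include 20 of the 23 members that passed the filter for testing, which asked for 3 or more libraries at 10 or above. The 200-base limit was chosen after the annotation and the values were seen, so these shares are descriptions. The sums are not divided by transcript length. Hist1h2bg lies just inside the limit at 200 bases and Hist1h2ae just outside at 199. The 42 members with shorter ends summed to 131 ± 17.3 (SD, n = 3) in WT-Control, 41.2 ± 13.5 in HD-Control and 471 ± 159 in HD-WNT5B libraries, and 11 of them were at 0 in all 9 libraries. Among all 67, 13 members were at 0 throughout, and a value of 0 says nothing of transcripts without a poly(A) tail. The polyadenylation signal AATAAA occurred after the stop codon in 13 of the 23 tested members and in 6 of the other 44, counts not adjusted for the length of these ends.

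**Figure D1:**
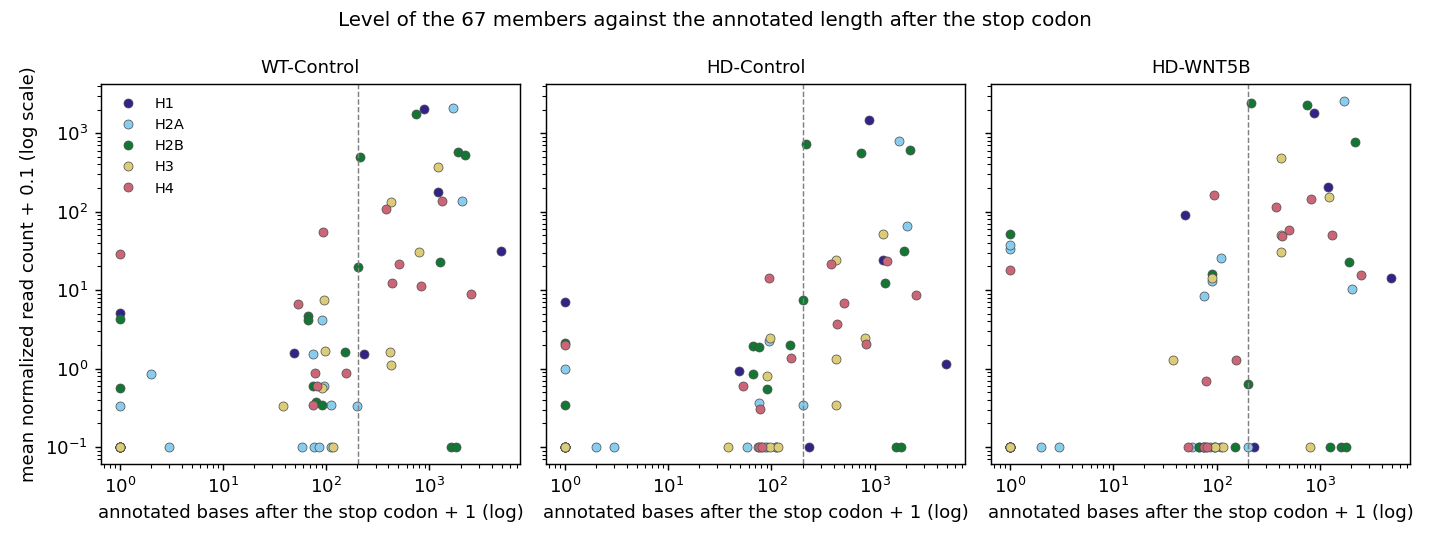
Mean normalized read count (plus 0.1, log scale) of each of the 67 members against the annotated bases after its stop codon (plus 1, log scale), one panel per group and one point per member, coloured by histone class. The dashed line marks 200 bases, and the members above 200 normalized reads all lie to its right.

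The HD-WNT5B libraries differ from the other 6 in ways that touch low members. They hold 37.3 to 52.1 M reads (M stands for 1e6), against 67.8 to 77.8 M in WT-Control and 69.8 to 90.6 M in HD-Control libraries. Genes with only 1 to 5 reads number 134 to 140 in them and 1284 to 1443 in the others. In HD-WNT5B, 14 members were above 10 in one library and at 0 in another, which happened for 0 members in either control group. Hist1h1a shows this at its most extreme, with 220, 49.8 and 0 in HD-WNT5B libraries 1, 2 and 3 and no more than 2.46 in any control library. Endogenous Wnt5b stood at 57.7 to 74.6 in WT-Control, 44.2 to 63.8 in HD-Control and at 184, 22.5 and 212 in HD-WNT5B libraries, so HD-WNT5B 2 lies below every control library. The labels do not give the species or sequence of the viral WNT5B, so Wnt5b reads need not count it, and counts below are also given without that library. None of the listed markers of neurons, astrocytes, oligodendrocytes, microglia or endothelial cells was at 0 in all libraries. That does not bear on values of 0 within the HD-WNT5B libraries.

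The summed level of the 67 members was lower in HD-Control than in WT-Control. It was 8920, 8995 and 8763 in WT-Control, 4499, 4457 and 4456 in HD-Control and 12622, 11025 and 11545 in HD-WNT5B libraries. No library of one group reaches the range of another. The ratio of HD-Control to WT-Control was 0.503 ± 0.007 (SD from the spread of both groups). That of HD-WNT5B to HD-Control was 2.62 ± 0.183, or 2.70 without HD-WNT5B 2 and 1.79 with equal totals in all libraries. Per M of all normalized reads, histone members took 160.6 to 164.4 in WT-Control, 79.9 to 80.9 in HD-Control and 131.6 to 154.3 in HD-WNT5B libraries, so on that scale HD-WNT5B lies below WT-Control and not above it.

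The ratio differed between the 5 classes. H3 and H4, the pair that forms the core of the nucleosome, had the lowest, with HD-Control sums at 0.152 ± 0.007 and 0.214 ± 0.02 of WT-Control. H2A stood at 0.384 ± 0.017, H2B at 0.567 ± 0.011 and H1 at 0.657 ± 0.041. The sums are carried by a few members: Hist1h1c made up most of H1, Hist3h2a most of H2A, and Hist2h3c1 with Hist2h3c2 most of H3 in WT-Control. These sums are descriptions, with no test.

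**Figure D2:**
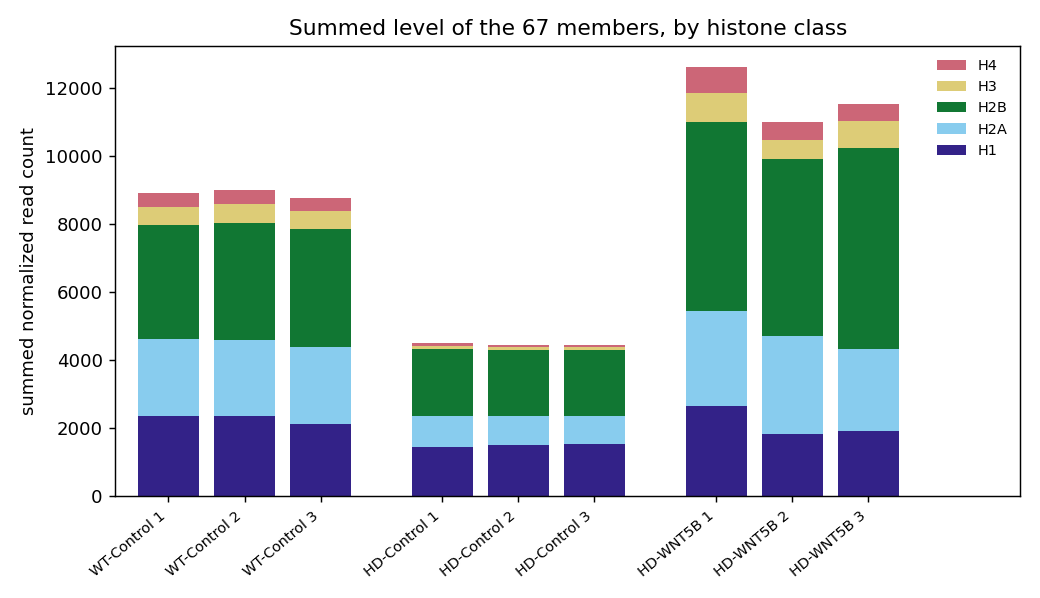
Summed normalized read count of the 67 members in each of the 9 libraries, as bars stacked by histone class. The HD-Control bars reach 4456 to 4499, the WT-Control bars 8763 to 8995, and the HD-WNT5B bars 11025 to 12622.

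In HD-Control against WT-Control, 15 of the 23 tested members were lower and 1 was higher (limma with Benjamini-Hochberg adjustment over the 15411 genes that were tested, at 0.05). Over all tested genes, 20.7% were lower and 24.5% higher. The median log2 fold change was -1.40 over the 23 members and 0.02 over all genes. Several members passed the filter only through the group in which they were high, so these counts describe the tested members and not all 67. Of the 10 members at 10 or above in every library, which the filter could not have favoured, 8 were lower and 1 higher, against 22.9% and 27.3% of the 13024 genes at that level. The spread in this fit is shared with the HD-WNT5B libraries. With a weight per group instead, 19 members were lower and 2 higher, against 39.9% and 43.1% of all genes. Without WT-Control 1 or without HD-Control 2, 10 members were lower and 0 higher. The share of all genes called lower was then 16.2% and 16.3%, and higher 19.8% and 19.5%.

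**Figure D3:**
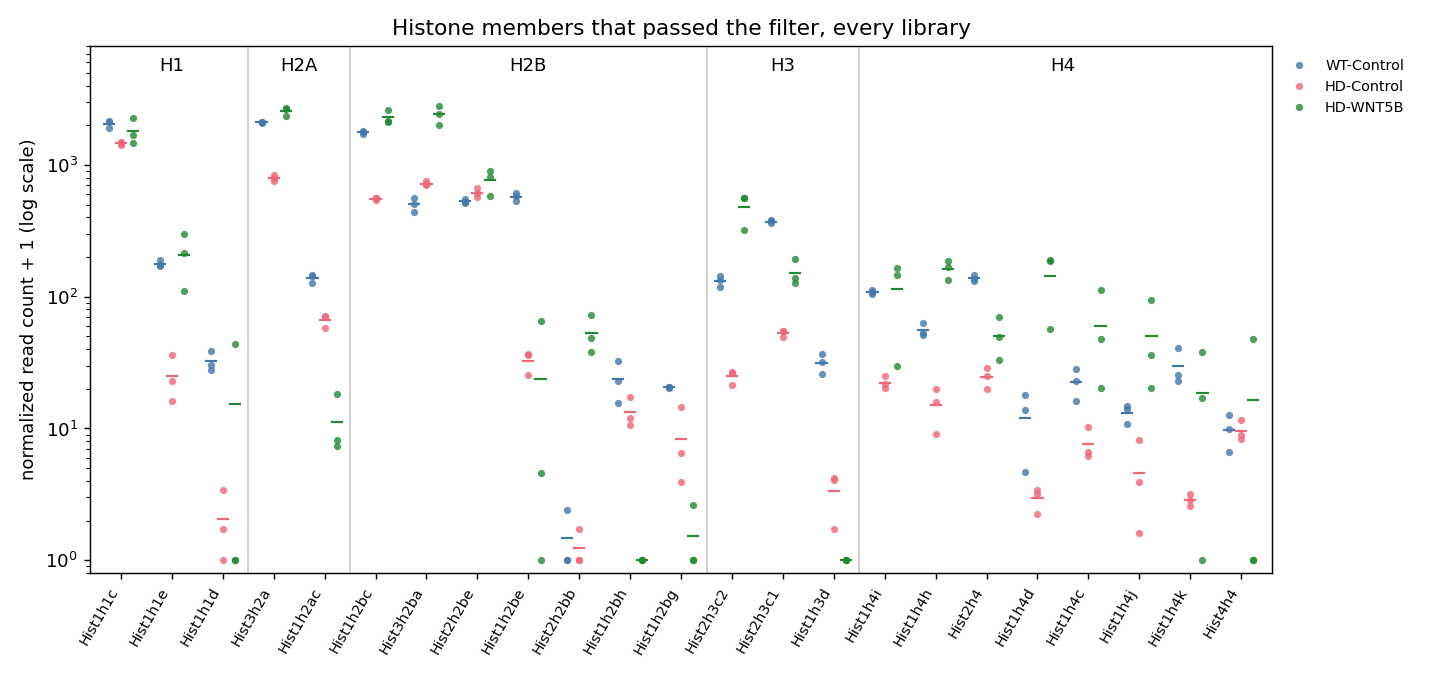
Normalized read count (plus 1, log scale) of the 23 tested members in every library, grouped by histone class. Points are libraries and short lines group means.

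Linker histones hold the DNA where it enters and leaves the nucleosome. Hist1h1c, the most abundant H1 gene here, lies on chromosome 13 from 23738808 to 23740367 (mm10, plus strand, 1 exon). It stood at 2104, 2136 and 1919 in WT-Control and at 1416, 1454 and 1503 in HD-Control libraries. The groups do not overlap, and the fall was the smallest of the called members (log2 -0.49, SE 0.14, limma adjusted p = 0.0233). That call is lost without any one of WT-Control 1, WT-Control 2, HD-Control 1, HD-Control 2 or HD-Control 3 (adjusted p = 0.0548 to 0.0767). Hist1h1e fell from 189, 173 and 170 to 21.8, 35.4 and 15.3 (log2 -2.80, SE 0.41, adjusted p = 0.000688). Exons of Hist1h2be cover 25.7% of its exon bases on the same strand, and that gene fell too. Hist1h1d went from 38.0, 26.6 and 29.2 to 2.39, 0.737 and 0 (log2 -3.11, SE 0.97, adjusted p = 0.0296), a call that ends when any one control library is left out (0.0581 to 0.0897).

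H2A pairs with H2B on the outer faces of the nucleosome. Hist3h2a, on chromosome 11 from 58954685 to 58956830 (plus strand, 1 exon), carried most of the H2A signal. Its level was 2120, 2079 and 2123 in WT-Control and 843, 792 and 755 in HD-Control libraries. It fell to 0.378 of the WT-Control mean, with little scatter in either group (log2 -1.40, SE 0.07, limma adjusted p = 2.9e-06). Trim17, an E3 ubiquitin ligase gene on the same strand, shares 32.99% of the exon bases of Hist3h2a and went from 1036 to 1112 in WT-Control to 195 to 208 in HD-Control libraries. Its part in the Hist3h2a value was not tested. Hist1h2ac went from 143, 145 and 125 to 56.6, 70.1 and 69.0 (log2 -1.05, SE 0.34, adjusted p = 0.033). Leaving out any one control library ends that call (0.0724 to 0.111). The other 16 H2A genes did not pass the filter for testing.

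H2B was the only class with a member that rose in HD-Control. Hist1h2bc, on chromosome 13 from 23684199 to 23692908 (plus strand, 2 exons in the longest coding transcript), stood at 1820, 1718 and 1778 in WT-Control and at 541, 560 and 557 in HD-Control libraries. Its fall (log2 -1.68, SE 0.09, limma adjusted p = 3.0e-06) put it at 0.312 of the WT-Control mean. Hist1h2be fell from 528, 584 and 609 to 35.6, 24.3 and 35.2 (log2 -4.07, SE 0.97, adjusted p = 0.00892). Hist3h2ba, the H2B neighbour of Hist3h2a on chromosome 11 (58948920 to 58949533), went the other way, from 441, 563 and 507 to 698, 757 and 710. That rise (log2 0.52, SE 0.14, adjusted p = 0.0148) missed the threshold without WT-Control 1 (0.0585) or without HD-Control 2 (0.0569). Hist2h2be, on chromosome 3 from 96221119 to 96223738, was at 512, 548 and 524 and at 663, 570 and 607, which do not overlap but did not pass the test (log2 0.21, SE 0.16, adjusted p = 0.334). With a weight per group its adjusted p was 0.00322, and over all alternatives 0.00255 to 0.6.

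H3 and H4 form the tetramer at the centre of the nucleosome. Hist2h3c1, on chromosome 3 from 96246685 to 96248509 (plus strand, 1 exon), fell from 360, 372 and 381 to 54.2, 53.8 and 48.6 (log2 -2.76, SE 0.21, limma adjusted p = 2.0e-05). Hist2h3c2, its neighbour from 96238108 to 96239127 on the other strand, fell from 142, 133 and 118 to 25.5, 25.8 and 20.3 (log2 -2.32, SE 0.27, adjusted p = 0.000187). Of their 50-base stretches, 100% and 63.54% occur in transcripts of other genes. For Hist2h3c1 this includes Gm20634, a processed transcript on the same strand that covers all of its exon bases. Its 100% is therefore not a measure of copies elsewhere, while no annotated gene overlaps Hist2h3c2. How reads were split between genes that share sequence is uncertain for both. Hist1h3d went from 31.0, 35.5 and 24.8 to 3.19, 0.737 and 3.08 (log2 -2.67, SE 0.32, adjusted p = 0.000233). Hist1h3d passed the filter only through WT-Control, where it is high, so its p is a description. Hist1h1d, Hist1h2bg, Hist1h2bh and Hist1h4k would likewise not have passed without their WT-Control libraries.

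Of the 8 tested H4 members 4 were lower in HD-Control and 0 higher. Hist2h4, on chromosome 3 from 96261682 to 96263311, had 146, 136 and 131 in WT-Control and 23.9, 28.0 and 19.1 in HD-Control libraries (log2 -2.41, SE 0.31, limma adjusted p = 0.000348). Hist1h4i, on chromosome 13 from 22040636 to 22041362, had 107, 103 and 112 against 23.9, 19.2 and 20.9 (log2 -2.19, SE 0.58, adjusted p = 0.0146). Hist1h4h, on chromosome 13 from 23531050 to 23531519, had 61.9, 50.1 and 51.8 against 19.1, 8.11 and 14.8 (log2 -1.81, SE 0.32, adjusted p = 0.00186). In each of these the control groups are far apart. Hist1h4d, at 12.7, 17.0 and 3.65 against 2.39, 2.21 and 1.23, did not pass (log2 -1.38, SE 0.58, adjusted p = 0.0852), though it passed with a weight per group (0.00035) and in 4 other settings (range over all settings 0.00035 to 0.252). Hist4h4, the only gene of the Hist4 group, was at 5.63 to 11.7 in WT-Control and 7.37 to 10.5 in HD-Control libraries, which overlap. The remaining lower members, Hist1h2bg (log2 -1.26, adjusted p = 0.0391) and Hist1h4k (log2 -2.66, adjusted p = 0.03), were called in 12 and 13 of 19 alternatives.

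In HD-WNT5B against HD-Control most tested members were higher, and not by a common factor. Of 23, 13 were higher and 4 lower, against 35.8% higher and 41.7% lower of all genes tested, with median log2 fold changes of 1.46 for members and -0.23 for all genes. Of the 10 members at 10 or above in every library, 8 were higher and 0 lower, against 41% and 40.9% of all genes at that level. With a weight per group, 10 members were higher and 1 lower, against 31.5% and 38.5% of all genes. Without HD-WNT5B 2 the counts were 15 and 3, against 37.9% and 43.7% of all genes.

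Transcript length and base composition moved with the HD-WNT5B values. Over the 15411 genes, the log2 fold change against HD-Control had a Spearman rho of -0.35 with transcript length and 0.28 with GC content, a description over genes that share the same libraries. For HD-Control against WT-Control these were -0.05 and 0. Histone members are short, with a median of 1249 bases against 3395 for all genes, and of like GC content (49.6% against 49.9%). After the trend on length and GC was removed in each library, 10 members were higher in HD-WNT5B than in HD-Control and 6 lower, against 40.9% and 32.4% of all genes. The higher count of 10 in 23 is near that share. The counts for HD-Control against WT-Control were then 15 lower and 1 higher, as without the removal, against 20.4% and 25.3% of all genes.

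Scaling every library to the same total also bears on HD-WNT5B, since these libraries sum to 79.9 to 83.8 M normalized reads and the others to 54.6 to 55.8 M. Under it the median of all genes moved from -0.23 to -0.76 against HD-Control and from -0.25 to -0.80 against WT-Control. The higher share of called genes then went from 46.19% to 32.17% and from 46% to 31.78%. Hist3h2a, Hist1h2bc, Hist1h1e, Hist2h3c1, Hist2h3c2 and Hist1h4h remained higher than in HD-Control under that scale and after the removal of the length and GC trend. Hist1h4d did too, but only HD-WNT5B had all 3 of its libraries at 10 or above. The filter favoured that difference, so it is a description.

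Hist3h2a was at 2652, 2719 and 2352 in HD-WNT5B libraries, above all WT-Control and HD-Control libraries (log2 1.69 against HD-Control, SE 0.07, limma adjusted p = 7.9e-08). Trim17, whose exons overlap it, was at 136 to 362 in the same libraries. Hist1h2bc reached 2615, 2130 and 2151 (log2 2.04 against HD-Control, SE 0.09, adjusted p = 7.6e-08). Against WT-Control the rises of Hist3h2a (0.29, adjusted p = 0.00687) and Hist1h2bc (0.37, adjusted p = 0.00479) turned with equal totals, to -0.29 and -0.21.

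The HD-WNT5B value of Hist3h2ba changed with the removal of the length and GC trend. It stood at 2012, 2454 and 2779 (log2 1.73 against HD-Control, SE 0.14, limma adjusted p = 4.1e-06; 2.25 against WT-Control, adjusted p = 6.7e-07). With the length and GC trend removed it was -0.40 (adjusted p = 0.0106) against HD-Control, and 0.01 (0.937) against WT-Control. Over all alternatives its adjusted p ranged from 3.1e-06 to 0.0106 and from 4.9e-07 to 0.937. Its rise in HD-Control stood at 0.41 to 0.61 in every setting.

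Of the 4 members lower in HD-WNT5B than in HD-Control, Hist1h2ac alone had reads in each HD-WNT5B library. It was at 7.15, 6.42 and 17.2 in HD-WNT5B libraries, below every HD-Control library (log2 -2.45, SE 0.34, limma adjusted p = 0.00015) and every WT-Control library (log2 -3.50, adjusted p = 1.4e-05). Hist1h2be, at 3.58, 0 and 64.3, overlapped HD-Control (log2 -1.64, SE 0.97, adjusted p = 0.153) and lay far below WT-Control (log2 -5.71, adjusted p = 0.000588). Without HD-WNT5B 3 it was also lower than in HD-Control (log2 -2.95, adjusted p = 0.000138). The other 3 were Hist1h2bg, Hist1h2bh and Hist1h3d. Hist1h2bg had 1.61 in HD-WNT5B 2 and 0 in the others, and Hist1h3d and Hist1h2bh had no read in any HD-WNT5B library. A floor of 3 reads over the group is worth 1.85 there, and the WT-Control means of Hist1h3d and Hist1h2bh were 16.5-fold and 12.3-fold above that floor. The floor covers counting error only. HD-WNT5B libraries hold few genes with 1 to 5 reads, so these folds are not lower bounds on the difference. Both members passed the filter only through WT-Control, where they are high, so their differences from it are descriptions. Against HD-Control the adjusted p of Hist1h3d was 0.0495 and ranged from 0.00251 to 0.611 over the alternatives.

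The H3 and H4 genes had unlike levels in HD-WNT5B. Hist2h3c2 was at 556, 321 and 558, above every WT-Control library, whereas Hist2h3c1 was at 191, 137 and 127, between the control groups. Against HD-Control both were higher (log2 4.12, SE 0.27, limma adjusted p = 1.0e-06, and 1.46, SE 0.21, adjusted p = 0.000217). Against WT-Control Hist2h3c2 was higher (1.80, adjusted p = 0.000264) and Hist2h3c1 lower (-1.30, adjusted p = 0.000459), and with the length and GC trend removed Hist2h3c2 did not pass (0.17, adjusted p = 0.575). Hist1h4d was at 186, 188 and 55.8, above the range of both control groups (log2 4.71 against HD-Control, SE 0.58, adjusted p = 7.1e-05). HD-WNT5B is the only group with all 3 of its libraries at 10 or above, so the filter favoured that difference and the p is a description. Hist1h4h reached 132, 167 and 187 (3.32, SE 0.32, adjusted p = 1.4e-05), and Hist2h4 reached 32.2, 48.2 and 68.6 (0.94, SE 0.31, adjusted p = 0.0228). The Hist2h4 call is lost without HD-Control 1 (0.0563) or HD-Control 3 (0.0835), with equal totals, a weight per group, only the 6 libraries compared or the length and GC trend removed. Hist1h4i was at 145, 28.9 and 165, so HD-WNT5B 2 sits near the HD-Control libraries and the others above WT-Control (1.93 against HD-Control, SE 0.58, adjusted p = 0.0139; 0.26, 0.696 with the trend removed).

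Of the 3 tested linker histone genes, only Hist1h1e was called against HD-Control. It reached 109, 296 and 214 (log2 2.90 against HD-Control, SE 0.41, limma adjusted p = 0.00018), a range that holds all WT-Control libraries. Hist1h1c, at 2281, 1463 and 1690, overlapped both control groups and was called in neither comparison (0.29 and -0.20, adjusted p = 0.0992 and 0.224). Without HD-WNT5B 2 it was higher than in HD-Control (0.43, adjusted p = 0.0128), and without HD-WNT5B 1 lower than in WT-Control (-0.38, 0.00275). With equal totals it was lower than in WT-Control (-0.78, 0.00105), and with the length and GC trend removed lower than in both control groups (-0.53, 0.00938 against HD-Control and -1.06, 0.000159 against WT-Control). Hist2h2bb, an H2B gene annotated as its coding sequence alone, had 2 reads in all WT-Control and 1 read in all HD-Control libraries together. It passed the filter through HD-WNT5B libraries alone, where it was at 71.5, 36.9 and 47.2, a ratio of 218 to HD-Control with a 95% counting interval of 38.2 to 8730. All of its 50-base stretches occur in other genes, but that share includes genes at the same place. Antisense Gm20628 covers it whole, so the share is not a measure of copies elsewhere, and its reads are uncertain.

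Against WT-Control, HD-WNT5B had 9 of 23 members higher and 7 lower, against 35.9% and 42.1% of all genes, with a median of -0.20 for members and -0.25 for all genes. The filter favoured some of these calls. Hist1h4d, Hist1h4j and Hist2h2bb (higher) passed it only through HD-WNT5B, and Hist1h2bg, Hist1h2bh and Hist1h3d (lower) only through WT-Control. Of the 10 members at 10 or above in every library, 5 were higher and 2 lower, with no share of all genes at that level given here. With a weight per group 4 were higher and 4 lower, against 32.2% and 39% of all genes. Without HD-WNT5B 2 the counts were 9 and 8, against 37.8% and 44.3% of all genes. With the length and GC trend removed they were 4 and 12, against 41.1% and 33.5%. Hist2h2be, at 816, 585 and 896, was among the 9 (log2 0.51, SE 0.16, limma adjusted p = 0.0186). It is not called without WT-Control 1 (0.0574) or WT-Control 3 (0.0518), and was -0.07 with equal totals. The summed classes followed their main genes, with H1 at 0.935 ± 0.21 of WT-Control and H2B at 1.62 ± 0.11. All 3 comparisons share groups of libraries, so their counts are not independent of each other.

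**Figure D4:**
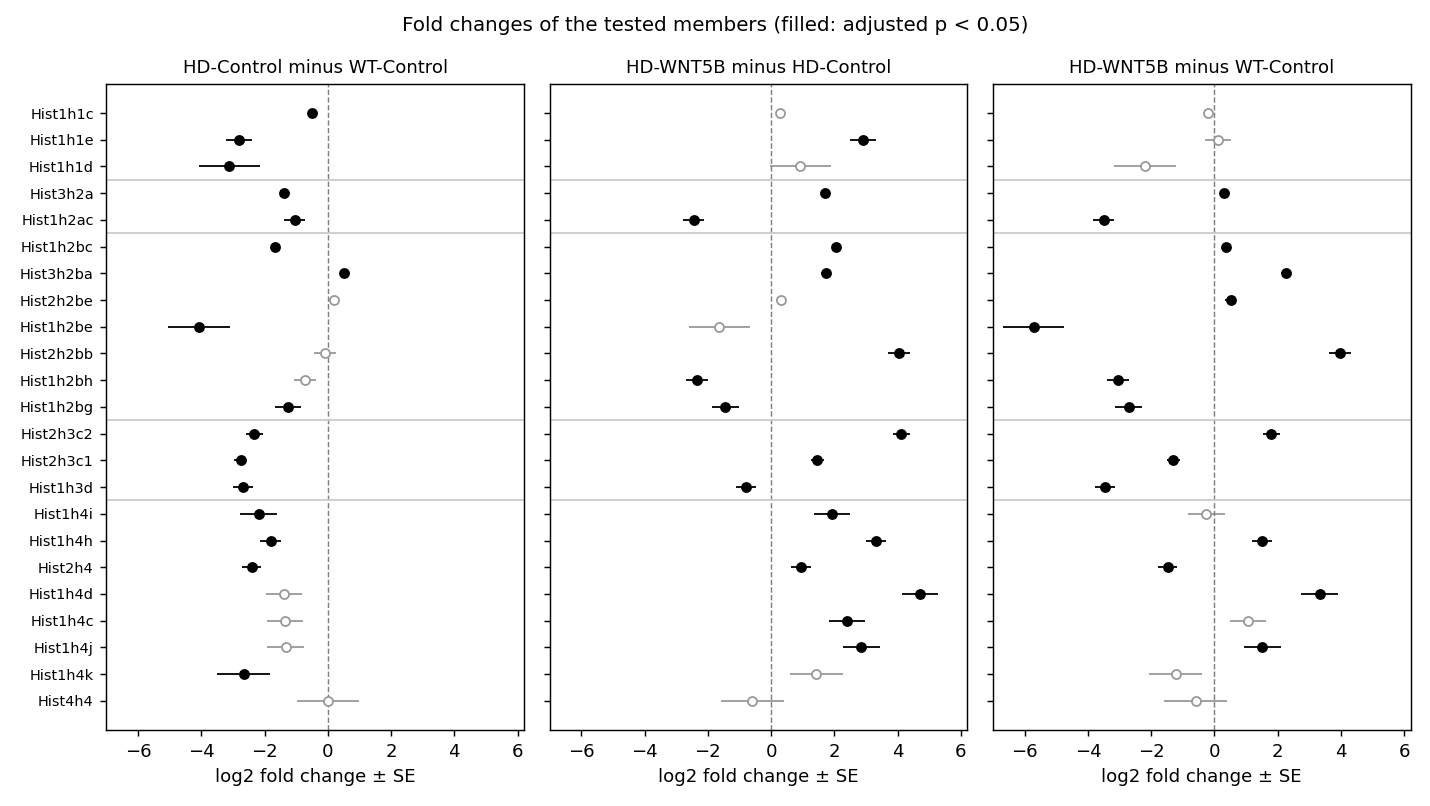
Log2 fold change ± SE (limma) of the 23 tested members in HD-Control minus WT-Control, HD-WNT5B minus HD-Control and HD-WNT5B minus WT-Control. Filled points passed an adjusted p of 0.05: 15 lower and 1 higher on the left, 13 higher and 4 lower in the middle, 9 higher and 7 lower on the right.

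Per kilobase of transcript the order of the most abundant members changed between groups. In WT-Control Hist1h2bc led at 1533 normalized reads per kilobase, followed by Hist1h1c at 1316, Hist3h2a at 982 and Hist3h2ba at 820. In HD-Control Hist3h2ba led at 1175, with Hist1h1c at 934.5 and Hist1h2bc at 478. In HD-WNT5B libraries Hist3h2ba stood at 3934, ahead of Hist1h2bc at 1988. The lowest tested members in WT-Control were Hist2h2bb at 1.23 and Hist4h4 at 3.05.

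Members were not read evenly along the Hist1 group, the largest, on mouse chromosome 13. Its proximal stretch (21715763 to 22043676) holds 23 members, of which 3 were tested and 10 were at 0 in all libraries. The distal stretch (23531050 to 23934851) holds 31, of which 12 were tested and 3 were at 0. Their summed levels in WT-Control were 171 ± 12.1 and 4933 ± 120. Hist2 on chromosome 3 held 5 tested of 10 members, Hist3 on chromosome 11 had both of its members tested, and Hist4 on chromosome 6 its single one.

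H2A and H2B genes often lie head to head and share one promoter region. Among the members 12 such pairs start within 400 bases of each other. Promoter windows of RefSeq (GRCm38.p6, 250 bases before to 50 after the start) matched 62 members. The CCAAT box, searched on both strands, occurred in 85.48% of them and in 37.41% of all 32851 windows, with every matched H1, H2A, H2B and H3 window and 25% of H4 windows holding it. TATAAA occurred in 56.45% against 13.62%, and ATTTGCAT, the octamer that Pou2f1 (Oct1) binds and that is known from H2B promoters, in 22.58% against 1.74%. Only H2A and H2B windows held the octamer.

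The pair Hist1h2ac and Hist1h2bc is the one in which both members were tested, with 250 bases between their starts. The stretch between them (GRCm38.p6, chr13:23683960-23684198) is shown because both genes are read from it in opposite directions. As printed, it ends at the RefSeq start of Hist1h2ac, and the 11 bases from there to the GENCODE start (23683948) are not shown. It is written 5′ to 3′ on the minus strand, from Hist1h2bc towards Hist1h2ac, with these 3 motifs, on either strand, in capitals:
Hist1h2bc to Hist1h2ac: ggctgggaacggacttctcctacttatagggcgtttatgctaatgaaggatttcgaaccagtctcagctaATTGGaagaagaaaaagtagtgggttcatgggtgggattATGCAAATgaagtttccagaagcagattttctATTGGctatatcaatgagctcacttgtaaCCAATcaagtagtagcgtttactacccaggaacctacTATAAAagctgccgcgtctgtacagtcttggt
The mean levels were 138, 65.2 and 10.2 for Hist1h2ac and 1772, 552 and 2299 for Hist1h2bc in WT-Control, HD-Control and HD-WNT5B libraries. Both fell in HD-Control, and in HD-WNT5B Hist1h2bc was higher and Hist1h2ac lower than in HD-Control. In a further pair, Hist2h2ac and Hist2h2be with 238 bases between starts, Hist2h2be was at 528, 613 and 766 and Hist2h2ac at 0.504, 2.17 and 0. The other pairs had no tested member apart from Hist1h2bg.

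Histone genes outside the clusters, most of which encode variants made throughout the cell cycle, were listed for comparison. Of 11 tested, 3 were higher and 2 lower in HD-Control than in WT-Control, near the 24.5% and 20.7% of all genes, with a median log2 fold change of 0.13. H3f3b, a source of histone H3.3, rose from a mean of 8551 ± 220 to 15450 ± 207 (log2 0.85, SE 0.04, limma adjusted p = 2.2e-06), while H2afv, an H2A.Z gene, fell from 1649 ± 78.3 to 1094 ± 15.9 (-0.59, SE 0.06, adjusted p = 0.00013). H1f0, the linker histone of resting cells, rose by 0.25 (adjusted p = 0.00233) and H1fx fell by 0.27 (adjusted p = 0.00494). In HD-WNT5B against HD-Control 8 were higher and 2 lower, against 35.8% and 41.7% of all genes, and H1fx went to 13100 ± 562 (log2 4.53, SE 0.06, adjusted p = 6.0e-11). The difference between the clustered genes and these was not tested.

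Of 26 factors that transcribe or cut histone messenger RNA, 11 were higher and 1 lower in HD-Control, against 24.5% and 20.7% of all genes. Npat, the coactivator that gathers at the histone gene clusters, rose from 2117 ± 71.3 to 3266 ± 25.7 (log2 0.63, SE 0.05, limma adjusted p = 2.9e-05). It stood at 785 ± 7.19 in HD-WNT5B libraries (-2.05 against HD-Control, SE 0.05, adjusted p = 2.4e-09). Ncbp1, a cap-binding subunit, and Wdr33, which reads the poly(A) signal, rose by 0.60 and 0.57, and Ncbp2 fell by 0.78. In HD-WNT5B against HD-Control, 8 factors were higher and 13 lower, against 35.8% and 41.7%. Slbp, singled out after its values were seen, was at 529, 531 and 544 in WT-Control, 761, 788 and 800 in HD-Control and 109, 3.21 and 0 in HD-WNT5B libraries. It was lower in HD-WNT5B than in HD-Control (log2 -5.94, SE 1.12, adjusted p = 0.00115). Its difference between the control groups (0.55) did not pass with the shared spread (adjusted p = 0.737), passed with a weight per group (0.0019) and ranged from 1.9e-09 to 0.811 over the alternatives.

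Among 17 factors of histone messenger RNA decay, 6 were higher and 0 lower in HD-Control, and 9 higher and 5 lower in HD-WNT5B against HD-Control. The shares of all genes beside the counts of this and the next lists are 24.5% higher and 20.7% lower in HD-Control, and 35.8% and 41.7% in HD-WNT5B. Tut7, a uridylyltransferase that marks histone messages for decay, rose by 0.59 in HD-Control (limma adjusted p = 1.6e-05), Exosc10, an exosome nuclease, by 0.50, Xrn1, the 5′ exonuclease, by 0.78 and Lsm3 by 0.75. Of 11 poly(A) polymerases, cleavage factors and poly(A)-binding proteins, 4 were higher and 0 lower in HD-Control, among them Pcf11 (log2 0.83, adjusted p = 0.000295). Histone chaperones, which escort histones to DNA, counted 15 higher and 1 lower of 23 in HD-Control, with Rbbp4 at 0.58 and Nap1l1 at 0.37, and 5 higher and 16 lower in HD-WNT5B against HD-Control.

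Genes of S phase and proliferation had no member called lower in HD-Control. Of 30 tested, 6 were higher and 0 lower in HD-Control than in WT-Control, with a median log2 fold change of 0.24, and 5 higher and 13 lower in HD-WNT5B against HD-Control. The higher share in HD-Control does not exceed the 24.5% of all genes, and 20.7% of all genes were lower. In HD-WNT5B 35.8% and 41.7% were. The summed level of the list was 9265 to 9576 in WT-Control, 12520 to 12740 in HD-Control and 8560 to 9813 in HD-WNT5B libraries. Ccna2, the S phase cyclin A2, rose from 197, 203 and 197 to 671, 648 and 653 (log2 1.71, SE 0.26, limma adjusted p = 0.000833). It stood at 174, 83.5 and 152 in HD-WNT5B libraries. The counts over these lists describe them and were not tested as sets.

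Markers of each brain cell type listed had more lower than higher members in HD-Control, as the histone genes did, where 24.5% of all genes were higher and 20.7% lower. Of 20 microglia markers 16 were lower and 1 higher in HD-Control, and their sum went from 47150 to 47750 in WT-Control to 23960 to 24040 in HD-Control and 58820 to 65010 in HD-WNT5B libraries. Oligodendrocyte markers (12 of 14 lower in HD-Control) summed to 508500 to 513400, 355800 to 358200 and 781500 to 826900 in the 3 groups. Endothelial and mural markers (7 of 11 lower) summed to 28480 to 28860, 18730 to 18740 and 50570 to 59940. Oligodendrocyte precursor markers (7 of 10 lower) went from 41390 to 42180 to 25560 to 25680 and were at 22450 to 24840 in HD-WNT5B. Astrocyte markers (8 of 12 lower, 2 higher) went from 350000 to 353000 to 225800 to 227300 and 214700 to 231500, and neuron markers (12 of 18 lower, 2 higher) from 720700 to 725000 to 678500 to 684700 and 484100 to 485500. No marker of these lists was at 0 in all libraries. Their part in the histone values was not tested, and in bulk tissue fewer cells of a type cannot be told apart from less RNA per cell.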

How the data were processed

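The deposited tables hold 1 decimal value per gene and library, a normalized read count used here as a signal with no division by gene length. From the values deposited by the authors, low values are multiples of 1 step per library, the value of 1 read, which was used only to state reads. Alignment was with STAR to mm10 per the submitters' processing notes. How reads that fit several genes were counted, and with which program and normalization, is not given in the sources used here. The kit named in the labels does not state that strand was kept, so overlapping genes on opposite strands are uncertain.

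All 21853 identifiers matched GENCODE M21 protein-coding genes, and of 70 symbols that fit the rule 3 are pseudogenes not analysed here. The fit was limma 3.58.1 (R 4.3.3) on log2(value + 3), with 1 mean for each group, all 9 libraries and an intensity trend in the variance. Fold changes of low genes are understated by the added 3. Genes at 10 or above in at least 3 libraries were tested (15411) and called at an adjusted p below 0.05. A count test had been planned and was not used, because the values are not whole counts. The procedure was tested on simulated data.

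Members and gene lists were chosen with earlier results of these data known. Named members are the 3 with the highest mean per class and the 2 called members with the smallest p per class and comparison, and up to 4 genes per list. Others (Hist1h1a, Hist1h2ae, Hist1h2bg, Hist1h2bh, Hist1h4j, Hist1h4k, Hist2h2ac, Hist4h4, Trim17, Wnt5b and Slbp) were named after their values were seen. Stem-loops were matched as a perfect 6-base stem beginning with GG around a 4-base loop whose first base is T and second T or C, after the stop codon.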

Additional observations from a re-analysis of the deposited data

How the results depend on the processing

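Counts of histone members depend on the spread assumed and on the filter, and HD-WNT5B values also on scale and transcript length. In HD-Control against WT-Control, 16 members changed, and 10 to 19 with one library left out (higher 0 to 1). The higher count was 2 with no filter, a weight per group or only the 6 libraries compared. All genes changed numbered 12779 (6635 higher, 6144 lower) with a weight per group and 12908 (6710 and 6198) with only the 6 libraries compared, against 6957. In HD-WNT5B against HD-Control, 11 members changed with a minimum of 50 or a weight per group instead of 17, and the lower count was 8 with no filter and 1 with either of those. Against WT-Control, 8 members changed with a weight per group, 4 of them higher and 4 lower, 5 were higher with equal totals and 4 with the length and GC trend removed. The lower count was 14 with no filter, 4 with a minimum of 50 and 12 with the trend removed. The removal of the trend was chosen after seeing the data. Shares of all genes stand beside the counts in the Results for the weight per group, the trend removed and some libraries left out. For the other settings no such share is given, so those counts describe the members only.

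Reversed values with the trend removed were -0.53 for Hist1h1c and -0.40 for Hist3h2ba against HD-Control, and -0.34 for Hist1h2bc and -1.13 for Hist1h4h against WT-Control. With equal totals they were -0.21 for Hist1h2bc, -0.07 for Hist2h2be and -0.29 for Hist3h2a against WT-Control, and with one library left out Hist1h4i ranged from -0.69 to 0.51 (0.51 without HD-WNT5B replicate 2). Summed ratios to HD-Control with equal totals were 0.97 for H1, 2.12 for H2A, 1.95 for H2B, 5.98 for H3, 4.97 for H4 and 1.79 for all members. Those to WT-Control were 0.625, 0.801, 1.08, 0.893, 1.04 and 0.882. For HD-Control against WT-Control all members stood at 0.494 with equal totals, 0.493 with trimmed-mean factors and 0.482 with upper-quartile factors, and H2B at 0.543 with the last. The cause of these changes was not tested.

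Libraries with the same replicate number showed no shared deviation: their deviations correlated at -0.023 to 0.024, and those with different numbers at -0.026 to 0.04. That cannot exclude a pairing of animals or preparation, which the labels do not give. With the replicate number as a block, 15, 16 and 17 members changed in the 3 comparisons, again with no share of all genes to set beside them. With upper-quartile factors 47.25% of genes called in HD-Control against WT-Control were higher, and with the deposited scale 54.25%. Count tests in edgeR and DESeq2 were not run, since the values are normalized decimals, and the trimmed-mean factors were computed without edgeR. Members below about 3 reads cannot be told from 0 at these depths.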
